A study of Mus musculus with 6 samples.

Results

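The genes described here are 33 genes of glycolysis and of the response to low oxygen, taken by gene name from a table of read counts for 49315 mouse genes. All 33 of 33 names were found once each. The RNA came from lung cells of C57BL/6 mice, given by the study's methods as male C57BL/6J, whose age is not given in the sources used here. The mice received bleomycin sulfate (BLM), a DNA-damaging agent that leads to lung fibrosis, or sterile saline (sham) by the oropharyngeal route, and lungs were taken after 21 days. Suspensions of lung cells were sequenced in bulk, either unsorted or after a sort with an anti-Lamp1 antibody into cells with surface Lamp1 (Lamp1-enriched) and without it (Lamp1-depleted). Lamp1 is a lysosomal membrane protein that the study uses as a surface marker of senescent cells. Each of the 6 conditions has 1 library, and the methods state that 2 to 3 lungs of the same group went into a tube together. Single animals therefore cannot be told apart, and no difference between conditions has a replicate check. Wherever values of all 6 libraries are listed, the order is unsorted, then depleted, then enriched, for sham and then for BLM.

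Glycolysis turns glucose into pyruvate in the cytosol, and lactate dehydrogenase turns pyruvate into lactate, which leaves the cell through monocarboxylate transporters. Several steps are run by isoenzymes from different genes, and cell types differ in which isoenzyme they use. When oxygen is low, the factors HIF-1alpha (Hif1a) and HIF-2alpha (Epas1) are no longer degraded and raise the transcription of many glycolytic genes; in lung, Epas1 is known as an abundant transcript of endothelial cells.

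The libraries held 40742095, 39609874 and 45090413 counted reads in sham and 39728284, 30236120 and 52918696 in BLM mice. The BLM Lamp1-depleted library stands apart from the others. Of its reads, 38.4% lay on a single gene, Gm26917, against 0.884% to 7.10% in the other 5 libraries, and its scaling factor from the trimmed mean of M-values (TMM) was 0.699, against 0.993 to 1.19. Levels are read counts divided by the TMM-scaled library size (CPM). A difference between libraries is the log2 ratio of CPM with a prior count of 0.5 reads, and the range in brackets is a 95% Clopper-Pearson interval that covers counting error only. These intervals compare libraries, not conditions. The median log2 ratio of all genes tested for BLM over sham was -0.07 in unsorted, -0.20 in Lamp1-depleted and 0.00 in Lamp1-enriched cells. For Lamp1-enriched over Lamp1-depleted cells it was -0.01 in sham and 0.29 in BLM mice. Other scalings shifted these medians. Total counts without TMM moved them by -0.26 in unsorted and -0.72 in Lamp1-depleted cells, BLM over sham, and by -0.17 in sham and 0.56 in BLM mice between the fractions. Total counts outside Gm26917 moved the median by -0.18 in unsorted cells, and by -0.21 in sham and -0.12 in BLM mice between the fractions. DESeq2 size factors moved it by 0.15 in Lamp1-depleted cells and by -0.15 between the fractions of BLM mice.

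The libraries differed in their cell type markers. The gene said to lead a list has the highest mean CPM over the 6 libraries; it was also first in every library for the neutrophil, alveolar macrophage, scar-associated macrophage and airway lists, but not for the others. The 10 endothelial markers, led by Cdh5, summed to 6251, 1402 and 10870 CPM in the sham and 4155, 1071 and 11760 CPM in the BLM libraries, and 10 of 10 were at least 2-fold higher in Lamp1-enriched than in Lamp1-depleted cells of either treatment. Lymphocyte markers were at their highest in the depleted libraries. The 6 B cell genes, led by Cd22, summed to 252, 3137 and 169 CPM in the sham and 226, 1619 and 75.9 CPM in the BLM libraries. The 8 T cell genes, led by Lck, summed to 43.3, 598 and 29.5 CPM in the sham and 49.5, 422 and 16.9 CPM in the BLM libraries, and the 6 NK cell genes, led by Prf1, to 21.9, 169 and 13.2 CPM in the sham and 8.16, 55.6 and 4.02 CPM in the BLM libraries. All 20 of these lymphocyte genes were at least 2-fold lower in Lamp1-enriched cells of either treatment.

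Macrophage markers set BLM unsorted cells apart. The 6 genes of scar-associated macrophages, led by Spp1, summed to 89.1, 18.8 and 72.4 CPM in the sham and 4601, 344 and 619.5 CPM in the BLM libraries, and 6 of 6 were at least 2-fold higher after BLM in each fraction. The 7 alveolar macrophage genes found, led by Chil3, summed to 476, 118 and 119 CPM in the sham and 2582, 204 and 319 CPM in the BLM libraries, and the 8 of monocytes and interstitial macrophages, led by Csf1r, to 122, 373 and 68.2 CPM in the sham and 731, 259.6 and 141 CPM in the BLM libraries. All 3 sums were highest in BLM unsorted cells. The genes did not all follow. In unsorted, Lamp1-depleted and Lamp1-enriched cells, the alveolar macrophage genes at least 2-fold higher after BLM were 5, 2 and 5 of 7, and those at least 2-fold lower 1, 2 and 2; for monocytes and interstitial macrophages they were 7, 3 and 4 of 8, and 0, 1 and 1. The 8 neutrophil genes, led by Csf3r, summed to 67.5, 47.9 and 27.8 CPM in the sham and 132, 328 and 59.3 CPM in the BLM libraries, a sum highest in BLM Lamp1-depleted cells, although Ly6g and Camp had at most 11 reads in any library. The 6 dendritic cell genes summed to 232, 555 and 261 CPM in the sham and 199, 222 and 229.7 CPM in the BLM libraries. In unsorted and Lamp1-enriched cells this sum was lower in the BLM library while the median log2 ratios were 0.89 and 0.6, with Flt3, Xcr1 and Ccl22 at least 2-fold higher in both. Their gene with the highest CPM was Ccr7 in the depleted, Clec9a in the unsorted and Zbtb46 in the enriched libraries of both treatments.

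Platelet, erythroid and alveolar type 2 sums were lower in the BLM library of every fraction. The 8 platelet genes, led by Ppbp, summed to 333, 44.5 and 1095 CPM in the sham and 59.5, 13.6 and 161 CPM in the BLM libraries, with Treml1 at 0 reads in BLM Lamp1-depleted cells, and the 6 erythroid genes, led by Hbb-bs, to 523, 182 and 179 CPM in the sham and 81.8, 45.2 and 31.4 CPM in the BLM libraries. The 8 genes of alveolar type 2 cells, led by Sftpc, summed to 1474, 429 and 1081 CPM in the sham and 404, 214 and 352 CPM in the BLM libraries. Within each fraction, 5 of these 8 were at least 2-fold lower after BLM. Abca3 was near level, from 107 CPM in sham to 105 CPM in BLM unsorted cells, and from 88.4 to 89.1 CPM in Lamp1-depleted cells. Napsa, not Sftpc, was the highest of the list in sham Lamp1-depleted cells, at 181 CPM against 67.4 CPM in BLM. The 6 genes of alveolar type 1 cells, led by Cldn18, summed to 381, 41.8 and 396 CPM in the sham and 269.6, 64.3 and 243 CPM in the BLM libraries. Among them in unsorted cells, 2 were at least 2-fold lower and 1, Pdpn, was higher, from 12.7 CPM in sham to 110 CPM in BLM. The 6 airway genes, led by Scgb1a1, summed to 124, 18.7 and 82.5 CPM in the sham and 116, 58.4 and 36.5 CPM in the BLM libraries. The airway sums in unsorted cells were close while the median log2 ratio of these genes was 0.602. Mesenchymal sums differed from these. The 7 fibroblast genes, led by Col1a1, summed to 494, 91.3 and 247 CPM in the sham and 937, 193 and 964 CPM in the BLM libraries. This sum was higher in the BLM library of every fraction, but Col1a1, Col1a2 and Col3a1 were the only genes of the list at least 2-fold higher. Of the other 4, 1 was at least 2-fold lower in unsorted, 3 in Lamp1-depleted and 0 in Lamp1-enriched cells, and the list had median log2 ratios of 0.025, -0.248 and 0.859. The 6 genes of smooth muscle and pericytes, led by Pdgfrb, summed to 126, 20.9 and 136 CPM in the sham and 128, 24.1 and 103 CPM in the BLM libraries, with Cnn1 at 0 reads in BLM Lamp1-depleted cells. In unsorted cells the sums of this list were close while single genes were not, with Cspg4 at 16.2 CPM in sham and 72.3 CPM in BLM, Pdgfrb at 69.1 and 26.6 CPM and a median log2 ratio of -0.367. The 4 mesothelial genes, led by Upk3b, summed to 15.1, 3.22 and 1.30 CPM in the sham and 25.3, 3.74 and 7.98 CPM in the BLM libraries. Fewer cells of a type and less RNA per cell cannot be told apart in these bulk libraries, and the part of cell type composition in the results that follow was not tested.

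In unsorted cells, most of the genes were higher after BLM. A log2 ratio of at least 1 was found for 20 of 33 genes, against 13.9% of all 22772 genes tested, and a log2 ratio of -1 or less for 1 gene, Epas1, against 16.0%. The median over the 33 genes was 1.34. Lamp1-enriched cells showed a smaller shift, with 10 genes at 1 or more (10.2% of all genes tested), 1 gene, Slc2a3, at -1 or less (7.81%), and a median of 0.55. In Lamp1-depleted cells, 5 genes were at 1 or more (13.7%) and 0 at -1 or less (22.3%), with a median of 0.05. The share of 5 of 33 is near that of all genes, and these values rest on the library rich in Gm26917: scaled to total counts, the same comparison gave 2 genes higher (6.80% of all genes tested), 6 lower (46.9%) and a median of -0.66. With scaling factors taken from the other 5 libraries, the median in unsorted cells was 1.26. Relative to the median of all genes tested, the medians of the 33 genes were 1.41 in unsorted, 0.26 in Lamp1-depleted and 0.55 in Lamp1-enriched cells.

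Between the sorted fractions the genes split in both directions. In sham mice, 5 of 33 were at least 2-fold higher in Lamp1-enriched cells (27.5% of all genes tested) and 11 at least 2-fold lower (25.2%). In BLM mice, 8 were higher (34.4%) and 10 lower (22.6%); scaled to total counts, these were 14 (46.5%) and 5 (15.8%). The medians of the 33 genes were -0.23 in sham and 0.15 in BLM mice. Relative to the median of all genes tested they were -0.22 and -0.14, so that the sign in BLM mice depends on this reference. The edgeR quasi-likelihood test over these 4 libraries, with treatment as a block and Benjamini-Hochberg adjustment over all 20593 genes tested, called 5 genes higher in Lamp1-enriched cells, against 21.5% of all genes, and 10 lower, against 19.2%. Each of these 15 genes had the called direction in 2 of 2 treatments with TMM scaling. This is no separate check, since the calls came from the same 4 libraries. In sham mice the counting interval of Slc2a3 included 0 (-0.156 to 0.012). The fit had infinite prior degrees of freedom, so the variance of each gene was taken from a trend over all genes. The adjusted p values therefore do not measure a gene's own spread between libraries. The test has 1 residual degree of freedom. Without TMM scaling it called 3 genes higher (Epas1, Bnip3 and Ndrg1) and 2 lower (Hk2 and Slc16a1), and 2872 higher and 1564 lower among all genes against 4422 and 3964 with it. The calls of Slc2a1, Slc2a3, Hk3, Pfkm, Pfkp, Pfkfb4, Tpi1, Eno1, Slc16a3 and Egln3 were lost there. Without the BLM Lamp1-depleted library it would have 0 residual degrees of freedom and could not be run.

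**Figure D1:**
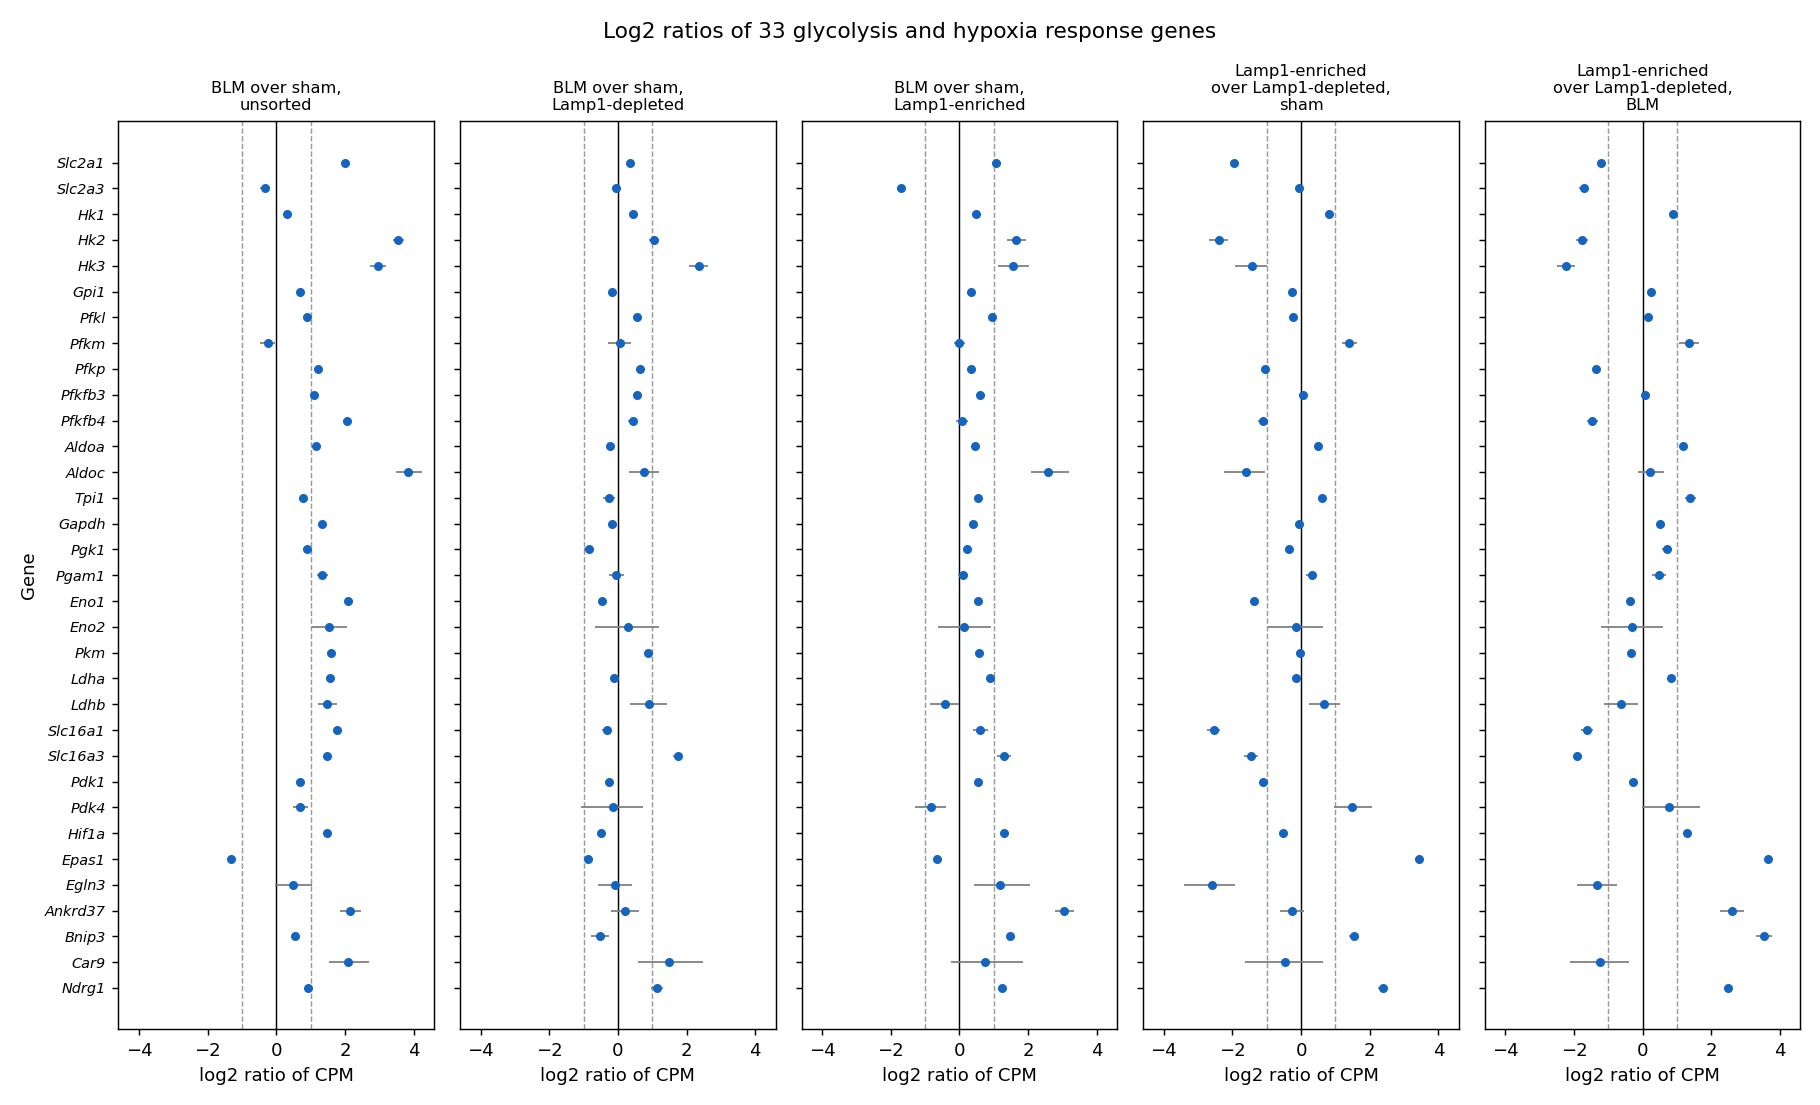
Log2 ratio of TMM-scaled CPM (horizontal axis) for each of the 33 genes (vertical axis) in 5 comparisons, with bars for the 95% counting interval and dashed lines at -1 and 1. In unsorted cells 20 of 33 points lie at 1 or above, against 5 in Lamp1-depleted and 10 in Lamp1-enriched cells.

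Glucose enters cells through facilitative carriers, of which Slc2a1 (GLUT1) is the widespread form and Slc2a3 (GLUT3) a high-affinity form of neurons and leukocytes. Slc2a1 was at 20.0, 66.9 and 17.4 CPM in the sham and 79.4, 84.9 and 36.3 CPM in the BLM libraries. It was low in sham unsorted and sham Lamp1-enriched cells, and its log2 ratio of BLM over sham was 1.99 (1.88 to 2.09) in unsorted and 1.06 (0.94 to 1.18) in Lamp1-enriched cells. Slc2a3 did not follow it, at 25.7, 51.4 and 48.9 CPM in the sham and 20.3, 49.2 and 15.0 CPM in the BLM libraries. In Lamp1-enriched cells Slc2a3 was lower after BLM, with a log2 ratio of -1.70 (-1.82 to -1.59). The quasi-likelihood test called both lower in Lamp1-enriched than in Lamp1-depleted cells, with a log2 fold change of -1.68 (SE 0.35, adjusted p = 9.5e-06) for Slc2a1 and -0.98 (SE 0.36, adjusted p = 0.0173) for Slc2a3. For Slc2a3 the fold rests on the BLM libraries, since its log2 ratio was -0.07 in sham and -1.72 in BLM mice, and its call was lost in each of the 4 alternatives, the DESeq2 Wald test of the same model among them.

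Hexokinases trap glucose as glucose 6-phosphate. Hk1 is the constitutive form, Hk2 an inducible form, and Hk3 a form known from myeloid cells. Hk1 was at 44.0, 36.2 and 64.2 CPM in the sham and 54.5, 48.9 and 90.4 CPM in the BLM libraries. Hk2 was at 8.07, 14.9 and 2.85 CPM in the sham and 94.9, 30.8 and 8.99 CPM in the BLM libraries. It was highest in BLM unsorted cells and, within each treatment, lowest in Lamp1-enriched cells. The log2 ratio of BLM over sham was 3.55 (3.40 to 3.71) in unsorted, 1.05 (0.89 to 1.21) in Lamp1-depleted and 1.66 (1.38 to 1.95) in Lamp1-enriched cells. Hk3 stood at 3.77, 3.38 and 1.24 CPM in the sham and 29.3, 17.3 and 3.67 CPM in the BLM libraries. Its log2 ratios in unsorted, Lamp1-depleted and Lamp1-enriched cells were 2.95 (2.73 to 3.19), 2.35 (2.08 to 2.64) and 1.56 (1.14 to 2.02). With TMM scaling, 3 of the 33 genes were at least 2-fold higher after BLM in each fraction: Hk2, Hk3 and the lactate carrier Slc16a3. Of the 19055 genes tested in all 3 comparisons, 2.39% were. Scaled to total counts, the log2 ratio of Hk2 in Lamp1-depleted cells was 0.33. In the quasi-likelihood test Hk2 was lower in Lamp1-enriched cells with a log2 fold change of -2.17 (SE 0.39, adjusted p = 2.1e-07), as was Hk3 with -1.95 (SE 0.46, adjusted p = 0.000125), and Hk1 was not called at 0.76 (SE 0.34, adjusted p = 0.0591).

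Compared per kilobase of exon within a library, which does not depend on scaling, the hexokinase in first place differed. The ratio of Hk2 to Hk1 was 0.262, 0.588 and 0.0636 in the sham and 2.49, 0.901 and 0.142 in the BLM libraries. Hk2 exceeded Hk1 in BLM unsorted cells alone, and in BLM Lamp1-depleted cells the ratio of 0.901 (0.815 to 0.995) was below 1. From sham to BLM the log2 of this ratio was higher by 3.25 (3.07 to 3.42) in unsorted and 1.16 (0.88 to 1.45) in Lamp1-enriched cells. The ratio of Hk3 to Hk1 was 0.199, 0.217 and 0.0451 in the sham and 1.25, 0.820 and 0.0943 in the BLM libraries. Of the summed hexokinase level per kilobase, Hk1 held 90.2% in sham and 80.9% in BLM Lamp1-enriched cells, but 21.1% in BLM unsorted cells, where Hk2 held 52.6% and Hk3 26.3%. In those BLM unsorted cells the summed macrophage markers were also at their highest. Hk3 held 30.1% in BLM Lamp1-depleted cells, where the summed neutrophil markers were at their highest, at 328 CPM. The part of cell type composition in these shares was not tested.

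**Figure D2:**
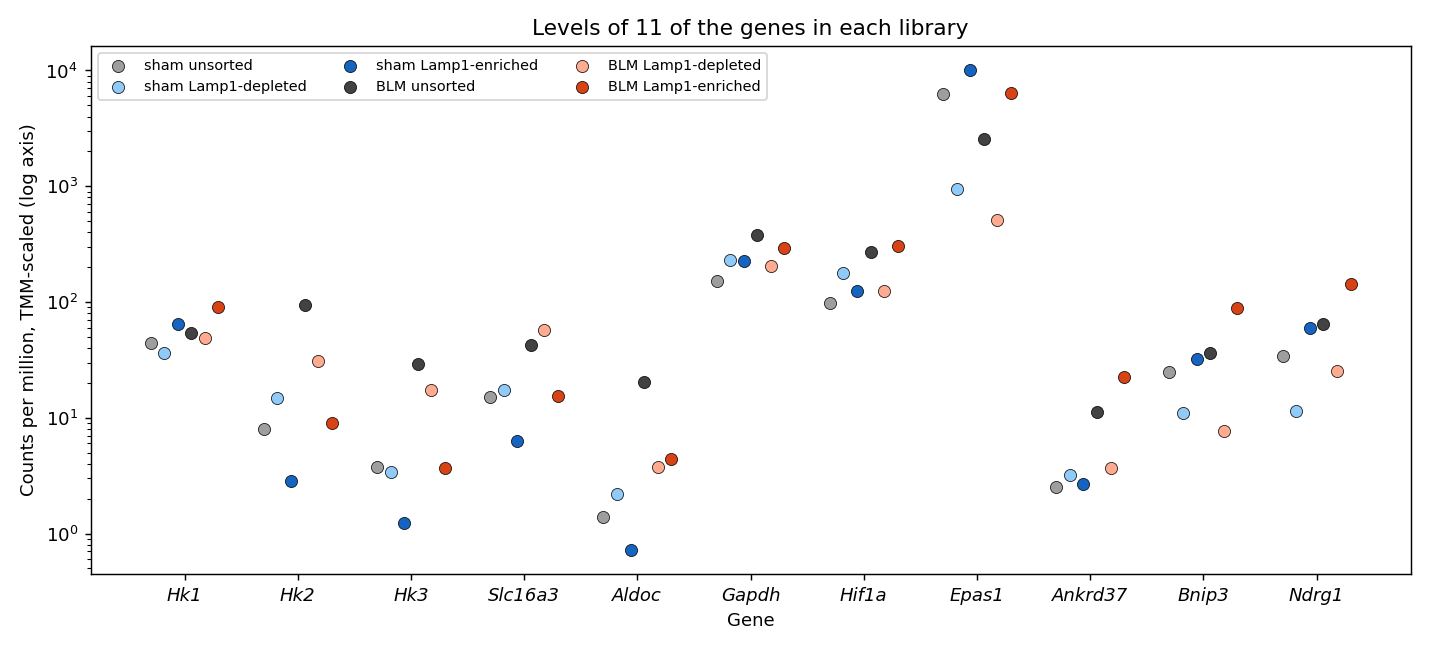
TMM-scaled CPM on a log axis (vertical) for 11 of the genes (horizontal), with 1 point per library coloured by treatment and fraction. Hk2 spans 2.85 to 94.9 CPM and Epas1 512 to 10101 CPM, and Hk1 36.2 to 90.4 CPM.

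HIF factors bind DNA at a short core that reads ACGTG or GCGTG. Promoter windows of 300 bases, from 250 before to 50 after the transcription start, were available for 30 of the 33 genes in RefSeq (GRCm38.p6). Searched on both strands, 24 of the 30 held ACGTG or GCGTG, as did 43.8% of all 32851 promoter windows; ACGTG was in 19.6% and GCGTG in 32.4%, with windows that hold both counted in each. CACGTG counts as ACGTG on both strands. The 6 windows without a match were those of Hk1, Gpi1, Aldoa, Tpi1, Eno2 and Pkm. Shown here, 5′ to 3′ on the strand of the gene, are the windows of 4 genes, with each match on either strand in capitals. In all, 16 of the 33 genes had log2 ratios past 1 in the same direction in at least 2 BLM comparisons or in both Lamp1 comparisons, and 14 of these have a window with a match. The share of all genes that meet this rule is not given here, so the count serves only to choose the windows. The 4 are those of the 14 with the largest mean log2 ratio, by size, over the 3 BLM or the 2 Lamp1 comparisons. They lie at chr7:138909457-138909756 on the minus strand for Bnip3, chr11:78322823-78323122 on the plus strand for Aldoc, chr13:55021336-55021635 on the minus strand for Hk3 and chr6:82774405-82774704 on the minus strand for Hk2.
Bnip3: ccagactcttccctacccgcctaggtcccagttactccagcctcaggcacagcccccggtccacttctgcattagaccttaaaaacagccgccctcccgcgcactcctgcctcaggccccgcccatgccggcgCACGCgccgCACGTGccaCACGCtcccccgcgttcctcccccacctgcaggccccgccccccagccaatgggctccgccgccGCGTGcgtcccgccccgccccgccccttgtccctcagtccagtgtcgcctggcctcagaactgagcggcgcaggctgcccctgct
Aldoc: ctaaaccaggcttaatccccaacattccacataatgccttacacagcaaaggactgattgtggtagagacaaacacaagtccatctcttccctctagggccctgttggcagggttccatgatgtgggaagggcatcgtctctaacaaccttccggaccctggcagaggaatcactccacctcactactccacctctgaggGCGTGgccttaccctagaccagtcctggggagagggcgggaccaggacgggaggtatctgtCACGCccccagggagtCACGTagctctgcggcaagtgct
Hk3: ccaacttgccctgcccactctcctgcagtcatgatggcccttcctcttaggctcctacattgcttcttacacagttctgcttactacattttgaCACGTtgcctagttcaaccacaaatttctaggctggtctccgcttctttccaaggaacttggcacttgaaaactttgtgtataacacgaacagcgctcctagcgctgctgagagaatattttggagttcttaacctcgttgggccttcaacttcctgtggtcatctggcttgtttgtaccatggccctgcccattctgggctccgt
Hk2: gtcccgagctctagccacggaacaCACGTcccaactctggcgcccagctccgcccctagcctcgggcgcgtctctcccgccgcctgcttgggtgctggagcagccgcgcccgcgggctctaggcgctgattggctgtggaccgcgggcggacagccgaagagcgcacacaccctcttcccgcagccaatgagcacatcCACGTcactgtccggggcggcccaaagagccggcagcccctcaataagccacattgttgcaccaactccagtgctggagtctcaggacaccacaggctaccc
Bnip3 has 5 matches, of which 2 are the opposite strands of 1 palindrome, Aldoc 3, Hk2 2 and Hk3 1. A match is a description of the letters and not evidence of binding.

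Phosphofructokinase commits sugar to glycolysis and is built from liver (Pfkl), muscle (Pfkm) and platelet (Pfkp) type subunits. Pfkl was at 24.5, 33.8 and 28.8 CPM in the sham and 45.9, 49.99 and 55.4 CPM in the BLM libraries, with the 3 BLM libraries above the 3 sham libraries, though not when scaled to total counts, where its log2 ratio in Lamp1-depleted cells was -0.15. Pfkp was at 48.3, 74.3 and 36.1 CPM in the sham and 113, 117 and 45.8 CPM in the BLM libraries. It was low in both Lamp1-enriched libraries, and the quasi-likelihood test called it lower there, with a log2 fold change of -1.29 (SE 0.34, adjusted p = 0.000749). Pfkm, at 5.15 to 13.6 CPM, was called higher in Lamp1-enriched cells at 1.27 (SE 0.41, adjusted p = 0.007). Per kilobase, the ratio of Pfkp to Pfkl was 0.982, 1.09 and 0.624 in the sham and 1.23, 1.16 and 0.412 in the BLM libraries. The ratio of Pfkm to Pfkl was 0.732, 0.306 and 0.943 in the sham and 0.330, 0.215 and 0.489 in the BLM libraries. From Lamp1-depleted to Lamp1-enriched cells, the log2 of Pfkp to Pfkl differed by -0.81 (-0.95 to -0.68) in sham and -1.49 (-1.62 to -1.36) in BLM mice, and that of Pfkm to Pfkl by 1.62 (1.38 to 1.87) and 1.19 (0.88 to 1.49).

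Pfkfb3 and Pfkfb4 make fructose 2,6-bisphosphate, the activator of phosphofructokinase. Pfkfb4 reached 60.1 CPM in BLM unsorted cells against 14.4 CPM in sham, a log2 ratio of 2.06 (1.94 to 2.19), and was called lower in Lamp1-enriched cells at -1.38 (SE 0.36, adjusted p = 0.000621). Pfkfb3 differed little between the sorted fractions, with log2 ratios of 0.04 in sham and 0.07 in BLM mice, and was higher in BLM unsorted cells by 1.08 (1.01 to 1.16).

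Leaving aside phosphofructokinase, the enzymes from glucose 6-phosphate isomerase (Gpi1) to pyruvate kinase (Pkm) were higher in BLM unsorted cells for 10 of 10 genes. Of all 22772 genes tested, 10576 were. This group of 10 was formed after the values were seen, so its shares only describe it. Among the 10 genes, 7 were at least 2-fold higher (13.9% of all genes tested), and their median log2 ratio was 1.34. Of the phosphofructokinase genes, Pfkm was not higher there, at -0.25 (-0.46 to -0.03). In Lamp1-enriched cells the same 10 of 10 were also above 0, as were 10834 of all 21671 genes tested. The intervals of Pgam1 (-0.035 to 0.252) and Eno2 (-0.636 to 0.91) included 0 there. Only 1 of the 10, Aldoc, was at least 2-fold higher, a share near the 10.2% of all genes, and the median was 0.41. In Lamp1-depleted cells 0 of 10 reached 2-fold in either direction, against 13.7% of all genes upward and 22.3% downward. Scaled to total counts, Pgk1 at -1.55 and Eno1 at -1.17 were past 2-fold there, as were 46.9% of all genes. Eno1, the widespread enolase, was at 63.5, 203 and 79.1 CPM in the sham and 273, 148 and 116 CPM in the BLM libraries. Its level was lowest in sham unsorted and sham Lamp1-enriched cells, and the log2 ratio in unsorted cells was 2.10 (2.04 to 2.16). Pkm was at 112, 144 and 142 CPM in the sham and 337, 264 and 208 CPM in the BLM libraries, with every BLM library above every sham library. Aldoc, the brain-type aldolase, had the largest log2 ratio of the 33 genes in unsorted cells, 3.84 (3.49 to 4.23). It was at 1.40, 2.22 and 0.717 CPM in the sham and 20.2, 3.74 and 4.38 CPM in the BLM libraries. Aldoa, the main aldolase, had a log2 ratio of 1.16 (1.12 to 1.21) there, and per kilobase Aldoc made up 0.985% of the aldolase level in sham and 6.03% in BLM unsorted cells. Eno2, the neuronal enolase, had 17 to 114 reads per library, and its counting intervals in both sorted fractions include 0.

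Triosephosphate isomerase (Tpi1) was called higher in Lamp1-enriched cells by the quasi-likelihood test, with a log2 fold change of 0.90 (SE 0.35, adjusted p = 0.0264), and Eno1 lower at -0.95 (SE 0.36, adjusted p = 0.0221). The treatments were unequal, with log2 ratios of 0.60 in sham and 1.39 in BLM mice for Tpi1, and -1.36 and -0.36 for Eno1. Both calls were lost with total counts only, and that of Eno1 also when all genes with at least 1 read or all 6 libraries were used. The log2 ratios of BLM over sham in unsorted cells were 0.70 for Gpi1, 0.77 for Tpi1, 0.89 for phosphoglycerate kinase (Pgk1) and 1.34 for phosphoglycerate mutase (Pgam1). None of Gpi1, Aldoa, Aldoc, Gapdh, Pgk1, Pgam1, Eno2 and Pkm was called between the sorted fractions by edgeR at an adjusted p of 0.05.

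Ldha favours the making of lactate and Ldhb the reverse step. Ldha was at 50.6, 75.7 and 68.1 CPM in the sham and 149, 70.1 and 125 CPM in the BLM libraries. The log2 ratio of BLM over sham was 1.56 (1.49 to 1.62) in unsorted and 0.88 (0.82 to 0.94) in Lamp1-enriched cells. Ldhb had 57 to 347 reads and was at 3.15, 1.45 and 2.33 CPM in the sham and 8.80, 2.70 and 1.72 CPM in the BLM libraries. Per kilobase, Ldha was the main form in every library, and the ratio of Ldhb to Ldha was 0.132, 0.0406 and 0.0723 in the sham and 0.125, 0.0819 and 0.0291 in the BLM libraries. From sham to BLM its log2 differed by -0.08 (-0.36 to 0.20) in unsorted cells, a difference that was not detectable at this depth, by 1.01 (0.49 to 1.53) in Lamp1-depleted and by -1.31 (-1.72 to -0.91) in Lamp1-enriched cells.

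The lactate carriers Slc16a1 (MCT1) and Slc16a3 (MCT4, the form of strongly glycolytic cells) were both lower in Lamp1-enriched than in Lamp1-depleted cells of the same treatment. Slc16a3 was at 15.1, 17.2 and 6.24 CPM in the sham and 42.2, 57.5 and 15.4 CPM in the BLM libraries. After BLM it was higher in each fraction, with log2 ratios of 1.49 in unsorted, 1.74 in Lamp1-depleted and 1.30 in Lamp1-enriched cells. Slc16a1 was at 14.2, 34.8 and 5.98 CPM in the sham and 48.6, 27.7 and 9.04 CPM in the BLM libraries. The quasi-likelihood log2 fold change of Lamp1-enriched over Lamp1-depleted cells was -2.17 (SE 0.37, adjusted p = 5.36e-08) for Slc16a1 and -1.78 (SE 0.36, adjusted p = 5.39e-06) for Slc16a3. Pyruvate dehydrogenase kinases hold pyruvate back from the mitochondria. Pdk1 was highest in sham Lamp1-depleted cells at 57.5 CPM and lowest in sham unsorted cells at 20.3 CPM, and was not called at -0.79 (SE 0.34, adjusted p = 0.0519). Pdk4 was highest in the unsorted libraries, with 6.24 CPM in sham and 10.1 CPM in BLM against 0.757 to 2.35 CPM in the 4 sorted libraries.

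The 2 HIF genes differed in opposite directions after BLM in unsorted and Lamp1-enriched cells. Hif1a was at 98.1, 177 and 124 CPM in the sham and 272, 125 and 306 CPM in the BLM libraries. It was high in BLM unsorted and BLM Lamp1-enriched cells. Epas1 had the highest level per kilobase of the 33 genes in every library and was at 6280, 941 and 10101 CPM in the sham and 2537, 512 and 6416 CPM in the BLM libraries, with rank 4 among all genes by reads in sham Lamp1-enriched cells. BLM over sham, Hif1a had log2 ratios of 1.47 (1.42 to 1.52) in unsorted, -0.50 (-0.56 to -0.43) in Lamp1-depleted and 1.30 (1.26 to 1.35) in Lamp1-enriched cells. Epas1 had -1.31 (-1.32 to -1.30), -0.88 (-0.91 to -0.85) and -0.66 (-0.66 to -0.65). Epas1 was called higher in Lamp1-enriched cells at 3.44 (SE 0.59, adjusted p = 4.41e-08), and Hif1a was not called, at 0.29 (SE 0.38, adjusted p = 0.57). For Hif1a the 2 treatments differed in sign, with -0.51 in sham and 1.29 in BLM mice, a difference that was not tested.

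Per kilobase, Epas1 exceeded Hif1a in all 6 libraries. The ratio was 67.5, 5.62 and 86.0 in the sham and 9.82, 4.31 and 22.1 in the BLM libraries. From sham to BLM its log2 differed by -2.78 (-2.83 to -2.73) in unsorted, -0.38 (-0.45 to -0.31) in Lamp1-depleted and -1.96 (-2.00 to -1.91) in Lamp1-enriched cells. In these comparisons the summed endothelial markers had log2 ratios of -0.59, -0.39 and 0.11. Their 10 genes had medians of -0.67, -0.24 and 0.07, with 3, 1 and 0 at least 2-fold lower and 0 at least 2-fold higher. Single genes differed from the sum. From sham to BLM, Vwf was at 659 and 857 CPM in unsorted and at 2052 and 3077 CPM in Lamp1-enriched cells. Cldn5 was at 349 and 131.5 CPM, and at 507 and 355 CPM, in the same order. How far Epas1 follows endothelial content was not tested. Between Lamp1-enriched and Lamp1-depleted cells Epas1 had 3.42 in sham and 3.65 in BLM mice, beside 2.95 and 3.46 for the summed endothelial markers.

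Among 5 genes known to be raised by low oxygen, Bnip3, a mitophagy receptor, was at 24.7, 11.01 and 31.9 CPM in the sham and 36.4, 7.72 and 89.3 CPM in the BLM libraries. Ndrg1, a stress-response gene, was at 34.2, 11.4 and 59.9 CPM in the sham and 65.2, 25.3 and 142 CPM in the BLM libraries. Both were highest in BLM Lamp1-enriched cells and were called higher in Lamp1-enriched cells, with log2 fold changes of 2.42 (SE 0.37, adjusted p = 1.22e-09) and 2.35 (SE 0.35, adjusted p = 5.4e-10). Ankrd37, an ankyrin repeat gene, was at 2.51, 3.20 and 2.67 CPM in the sham and 11.2, 3.69 and 22.3 CPM in the BLM libraries. It was high in BLM unsorted and BLM Lamp1-enriched cells and between 2.51 and 3.69 CPM in the other 4, and its log2 ratio in Lamp1-enriched cells, 3.06 (2.79 to 3.34), was the largest of the 33 genes there. Egln3, the prolyl hydroxylase PHD3, had 19 to 117 reads and was called lower in Lamp1-enriched cells at -2.06 (SE 0.68, adjusted p = 0.00814). Car9, a carbonic anhydrase of hypoxic cells, had 13 to 115 reads, with log2 ratios of 2.08 (1.53 to 2.71) in unsorted, 1.497 (0.58 to 2.49) in Lamp1-depleted and 0.73 (-0.26 to 1.84) in Lamp1-enriched cells, the last not detectable at this depth.

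The other paired genes gave ratios per kilobase as follows. For Slc2a3 to Slc2a1 the ratio was 0.621, 0.372 and 1.36 in the sham and 0.124, 0.281 and 0.200 in the BLM libraries. Per kilobase, Slc2a3 was thus the higher of the pair in sham Lamp1-enriched cells alone. By reads it was also the higher in sham unsorted cells, at 1248 against 973, so the order there depends on the exon lengths. Slc16a3 to Slc16a1 gave 0.880, 0.411 and 0.869 in the sham and 0.721, 1.73 and 1.41 in the BLM libraries. The ratio was above 1 in both sorted BLM libraries. Pfkfb4 to Pfkfb3 ranged from 0.279 in BLM Lamp1-enriched to 0.919 in BLM unsorted cells, and Pdk4 to Pdk1 from 0.0325 in sham Lamp1-depleted to 0.692 in BLM unsorted cells. Aldoc to Aldoa ranged from 0.00350 in sham Lamp1-enriched to 0.0642 in BLM unsorted cells, and Eno2 to Eno1 from 0.00377 in sham Lamp1-depleted to 0.0180 in sham unsorted cells.

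**Figure D3:**
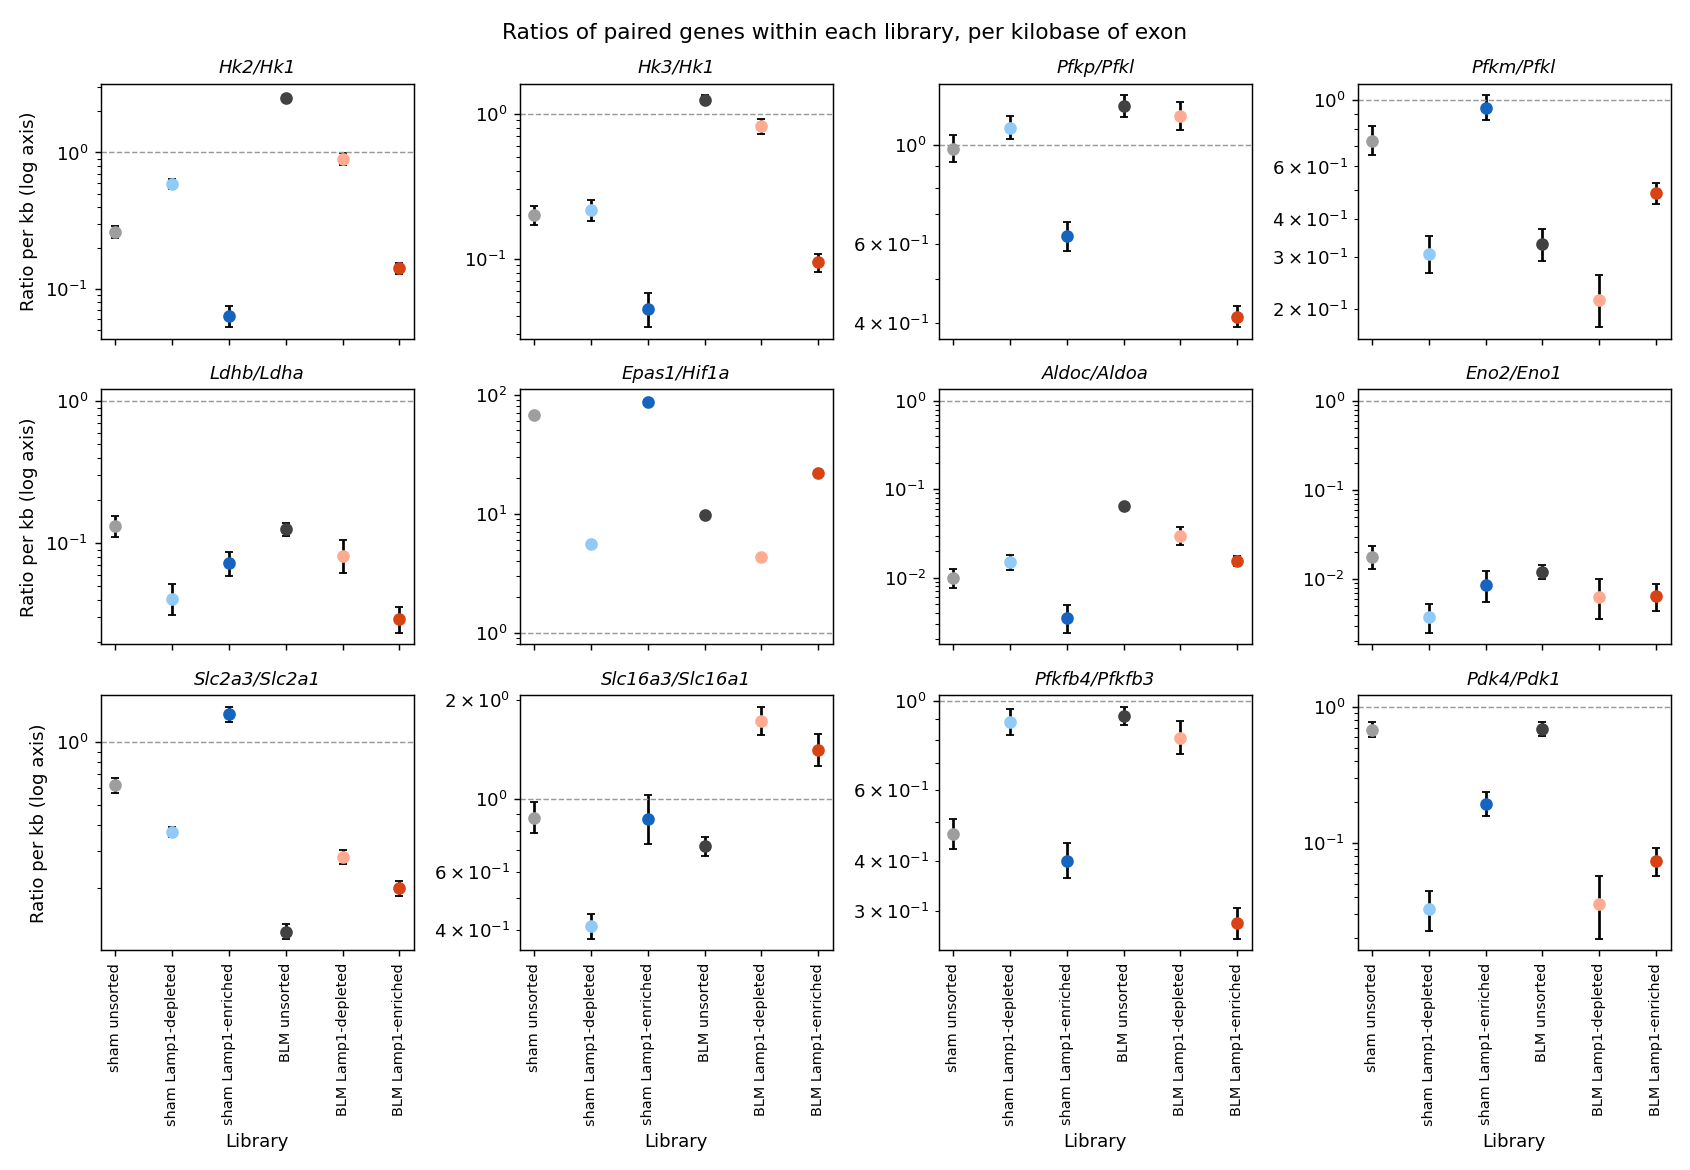
Ratio of the levels per kilobase of exon of 12 gene pairs (vertical axis, log) in each of the 6 libraries (horizontal axis), with bars for the 95% Clopper-Pearson counting interval and a dashed line at 1. Hk2 lies above Hk1 in BLM unsorted cells, at 2.49, and Epas1 lies above Hif1a in every library, from 4.31 to 86.0.

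Other genes of the pathways had smaller medians in unsorted cells. Of 38 tested of 41 other glycolysis, pentose phosphate and pyruvate genes, 9 were at least 2-fold higher after BLM (13.9% of all genes tested) and 2 at least 2-fold lower (16.0%), with a median log2 ratio of 0.27. The largest were Pgd (2.36) and G6pdx (1.41), both of the oxidative pentose phosphate branch, and Galm (1.95). Scaled to total counts, 4 were higher, against 10.7% of all genes, with a median of 0.01. Of 44 tested of 45 other hypoxia response genes, 9 were higher and 2 lower, with a median of 0.06, led by the heme oxygenase Hmox1 (3.66), Arnt2 (2.73, from 19 reads in sham) and Bhlhe40 (2.48), and with Ppp1r3c (-2.04) and Adm (-1.24) lowest. Of 21 tricarboxylic acid cycle genes, 2 were higher, Idh1 (1.73) and Aco1 (1.33), and 0 lower, with a median of 0.42, or 0.16 when scaled to total counts. In Lamp1-enriched cells the medians were -0.03, 0.08 and -0.10, and in Lamp1-depleted cells -0.30, -0.21 and -0.59; with total counts the latter were -1.01, -0.93 and -1.31.

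Between the sorted fractions, the quasi-likelihood test called 20 of 44 other hypoxia response genes higher in Lamp1-enriched cells, against 21.5% of all genes tested, and 3 lower, against 19.2%. In sham mice the largest log2 ratios were those of Ak4 (3.52, from 4 reads in Lamp1-depleted cells), Edn1 (3.47) and Flt1 (3.06). In BLM mice they were those of Edn1 (4.43), Loxl2 (4.43) and Plod2 (3.88). Edn1 and Flt1 are known from endothelial cells, whose summed markers had log2 ratios of 2.95 and 3.46. Of 35 other glycolysis, pentose phosphate and pyruvate genes, 3 were called higher and 5 lower, and of 21 tricarboxylic acid cycle genes 3 and 0. The glucose carrier Slc2a6 was lower in Lamp1-enriched cells by log2 ratios of -2.71 in sham and -2.87 in BLM mice.

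Gapdh, the glyceraldehyde 3-phosphate dehydrogenase of glycolysis, is often taken as a reference gene. It was at 151, 232 and 225 CPM in the sham and 382, 205 and 294 CPM in the BLM libraries. Its highest level, in BLM unsorted cells, was 2.53 times its lowest, in sham unsorted cells, and the log2 ratio between these libraries was 1.34 (1.30 to 1.38); this direction held with every scaling tried. Without the sham unsorted library the span was 1.86-fold and without the BLM unsorted library 1.95-fold. Over all 6 libraries, Gapdh ranked 6 of 13 reference genes from the smallest span, with Sdha at 1.56-fold, Pgk1 at 1.91-fold, Actb at 2.27-fold, Hprt at 2.56-fold, Gusb at 5.49-fold and B2m at 7.08-fold. This order depends on single libraries. For 9 of the 13 genes the lowest level was in the BLM Lamp1-depleted library, the one rich in Gm26917. Without it B2m spanned 2.04-fold, Hprt 1.60-fold, Sdha 1.48-fold and Pgk1 1.86-fold, Ywhaz had the smallest span, 1.44-fold against 2.39-fold with it, and Gapdh ranked 10 of 13. Gusb spanned 1.77-fold without the BLM unsorted library. The rank of Gapdh was 2 without the sham unsorted and 9 without the sham Lamp1-depleted library. Of 2963 genes with at least 1000 reads in every library, 58.7% had a smaller span than Gapdh, 70.7% without the BLM Lamp1-depleted, 33.6% without the sham unsorted and 40.5% without the BLM unsorted library. Leaving out libraries was chosen after seeing the data.

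Ratios of other genes differed with the reference they were set against. Cdkn1a (p21), a cell cycle inhibitor, had a log2 ratio of BLM over sham in unsorted cells of 1.11 with TMM scaling, -0.22 relative to Gapdh, -0.07 relative to Actb and 0.43 relative to Hprt. Glb1, the lysosomal beta-galactosidase, had 1.28, -0.05, 0.10 and 0.60 in that order, and Lmnb1, a nuclear lamin, 1.39, 0.05, 0.20 and 0.71. Lamp1 itself had 0.65, -0.69, -0.53 and -0.03, and Tgfb1 0.64, -0.70, -0.55 and -0.04. Cdkn2a (p16) had 28 reads in BLM and 41 in sham unsorted cells, with a log2 ratio of -0.25 by TMM and -1.59 relative to Gapdh. In Lamp1-depleted and then Lamp1-enriched cells, BLM over sham, Cdkn1a had 1.56 and 0.54 relative to Gapdh, and Lmnb1 1.68 and 0.51. Both were also above 0 there by TMM and relative to Actb and Hprt. Relative to Gapdh in the same order, Glb1 had 0.22 and -0.14, Lamp1 -0.22 and -0.76, and Tgfb1 -0.28 and -0.65. Cdkn2a had 1.62, from 8 reads in BLM and 6 in sham, and -0.39. For Lamp1-enriched over Lamp1-depleted cells of sham mice, where Gapdh differed by -0.05, Lamp1 had 1.75 by TMM and 1.79 relative to Gapdh. In BLM mice, where Gapdh differed by 0.52, Lamp1 had 1.77 by TMM, 1.25 relative to Gapdh and 0.82 relative to Hprt.

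**Figure D4:**
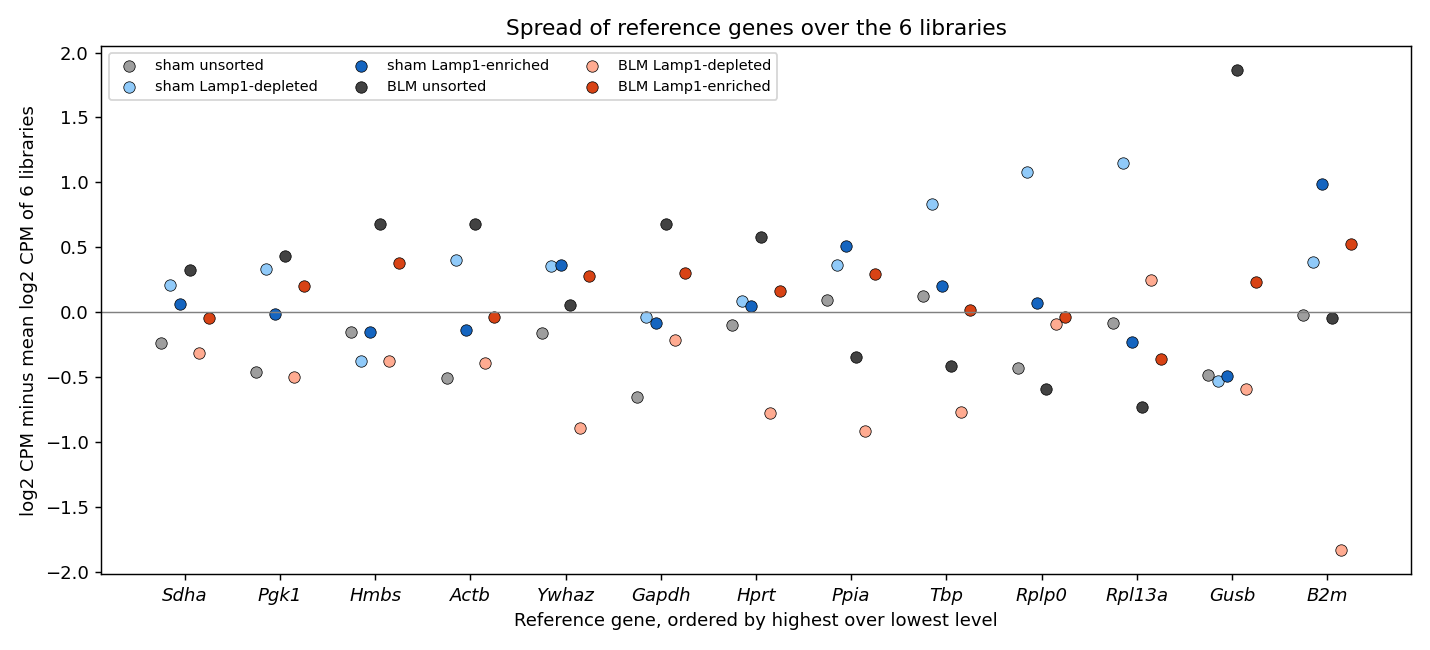
Log2 CPM of 13 reference genes in each of the 6 libraries, minus the mean of the 6 (vertical axis), with genes ordered by highest over lowest level (horizontal axis) and points coloured by library. Gapdh is lowest in sham unsorted and highest in BLM unsorted cells, a 2.53-fold span. The 7.08-fold span of B2m is 2.04-fold without the BLM Lamp1-depleted library.

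Some counts share bases with other genes. The exons of Ankrd37 overlap those of Lrp2bp on the opposite strand over 22.7% of their length, and those of Pkm a same-strand transcript, Gm49759, over 15.3%, whose own counts were 454 to 1145 reads. The sources used here do not say whether strand was used in counting, so reads of the opposite-strand pair cannot be told apart, and for the same-strand pair strand would not separate them. The exons of Bnip3 share 22.2% of their length with Gm45507 on the opposite strand, which had 0 reads. Of named copies and paralogs, Gapdhs had 65 to 180 reads and all others at most 24 reads per library. How reads that fit several copies were treated is not given, so the counts of Gapdh, Pgk1, Pgam1, Ldha, Tpi1 and Eno1 are uncertain in that respect.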

How the data were processed

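Values are raw read counts per Ensembl gene, deposited by the authors with no normalization, for 6 libraries named by their titles. The submitters' processing notes name Trimmomatic 0.36, STAR 2.5.2b, featureCounts, Subread 1.5.2, DESeq2 and GRCm38; annotation release, strand setting and multi-mapped reads are not given in the sources used here. TMM scaling and the quasi-likelihood test used edgeR 4.0.16 under R 4.3.3, with genes kept by filterByExpr, a biological coefficient of variation of 0.316 and infinite prior degrees of freedom. DESeq2 1.42.0 gave alternatives. Other values came from Python 3.11.15 with numpy 2.4.6, scipy 1.17.1, pandas 2.3.3 and matplotlib 3.10.9. A ratio was tested where 1 of its libraries had 10 reads or more, and a log2 ratio of 1 was the threshold. Exon lengths came from GENCODE M21, which held 49056 of the 49315 genes.

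The members and lists were chosen with earlier results of these data known, and the role groups of the members after their values were seen. All 33 members are named; of other lists, up to 3 genes in each direction per comparison with at least 50 reads were candidates. Of the marker genes, Siglecf was not found by name. No proteins are printed. Scaling, prior count, read minimum, fold threshold and test model were varied. Intervals and the quasi-likelihood test were tested on simulated data. There the test called none of the genes changed 2-fold and missed part of those changed 4-fold. Far fewer genes were changed there than the test called in the data, so the adjustment for multiple testing was stricter there. How often the test finds small changes in the data themselves was not tested. A gene it does not call is therefore not shown to be unchanged. The calls of Tpi1, Eno1 and Slc2a3, at under 2-fold, are smaller than any change it found under that stricter adjustment.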

Additional observations from a re-analysis of the deposited data

How the results depend on the processing

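With 1 library per condition, no library could be left out of a comparison. All groups share a single replicate number, so no analysis paired by replicate number was possible. The block of the quasi-likelihood test is treatment. Whether the fractions of a treatment came from the same animals was not established. No gene with a log2 ratio past 1 changed sign under any scaling, prior count or read minimum tried. Among the counts of the 33 genes, a prior count of 2 and read minimums of 1 or 50 moved none by more than 1.5 times.

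Scaling mattered most where the BLM Lamp1-depleted library entered. With total counts only, BLM over sham gave a median of 1.08 in unsorted cells, and in Lamp1-depleted cells a median of -0.66 with 2 genes higher and 6 lower (6.80% and 46.9% of all genes). Lamp1-enriched over Lamp1-depleted cells gave -0.40 in sham, and in BLM mice 0.71 with 14 higher and 5 lower (46.5% and 15.8%). The quasi-likelihood test called 3 higher and 2 lower (13.9% and 7.59%). With total counts outside Gm26917 the medians were 1.16 for unsorted and -0.02 for Lamp1-depleted cells, BLM over sham, and -0.44 in sham and 0.032 in BLM mice between fractions. DESeq2 size factors turned the last median, 0.15 by TMM, to -0.004. The span of Gapdh was 2.64 with total counts, where BLM Lamp1-depleted cells in place of sham unsorted cells had its lowest level, and 2.23 outside Gm26917. At a log2 ratio of 2, the genes higher and lower were 7 and 0 for unsorted (4.96% and 4.99% of all genes), 1 and 0 for Lamp1-depleted (5.40% and 7.71%) and 2 and 0 for Lamp1-enriched cells (3.57% and 2.05%), BLM over sham. Between fractions they were 2 and 3 in sham (15.6% and 12.6%) and 4 and 1 in BLM mice (19.3% and 12%).

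Other lists reversed at medians near 0. Between fractions of BLM mice, other glycolysis, pentose phosphate and pyruvate genes went from 0.12 to -0.036 with DESeq2 size factors and to -0.18 relative to the median of all genes. Other hypoxia response genes, BLM over sham in unsorted cells, went from 0.06 to -0.20 with total counts, -0.12 outside Gm26917 and -0.018 without the BLM Lamp1-depleted library. Tricarboxylic acid cycle genes between fractions of sham mice went from 0.02 to -0.15 and -0.19 with the first 2 of these. The cause was not tested.

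Alternatives chosen after seeing the data were scaling without the BLM Lamp1-depleted library, which gave 1.26 in unsorted cells, and ratios relative to the median of all genes, which gave 1.41 there and -0.14 between fractions of BLM mice. The span of Gapdh was also taken without each library in turn, and was 1.86 without sham unsorted and 1.95 without BLM unsorted cells. Egln3, Eno2 and Car9, with at most 117 reads, have wide counting intervals, and no interval covers differences between animals.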

Other observations

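In BLM mice, 17 of the 33 genes were higher in unsorted cells than in both sorted fractions, and 6 of these, Hk2, Aldoc, Eno2, Ldhb, Pdk4 and Car9, were at least 2-fold higher than in either; among all 22801 genes with at least 10 reads in 1 of these libraries, 26.4% and 8.51% were. In sham mice the counts were 6 and 1 of 33, against 25.7% and 7.58% of 23233 genes, and 13 of 33 were lower in unsorted cells than in both sorted fractions, against 22.1%. These comparisons were made after the values were seen.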
